A study of Mus musculus with 6 samples.

Results

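The cluster of miR-132 and miR-212 consists of 2 neighbouring miRNA genes whose hairpins give 4 mature arms, mmu-miR-132-3p, mmu-miR-132-5p, mmu-miR-212-3p and mmu-miR-212-5p, written here without the prefix. Their reads were taken from a table of unique short RNA sequences bound to Argonaute (Ago) proteins in mouse brain, as all rows that carried the name of 1 of the 4 arms. Of the 200 such rows, 196 were above 0 in at least 1 sample, out of 65087 sequences in all, and the 4 arms were 4 of the 782 mature miRNAs detected. miR-132-3p accounted for 118 of the 196 sequences, miR-212-3p for 46, miR-132-5p for 29 and miR-212-5p for 3.

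Ago is the protein of the RISC, the complex that silences mRNAs, which holds the guiding short RNA. Short RNAs found there are termed R-sRNAs. They were pulled down with a peptide of GW182, a protein that binds Ago, and sequenced (Ago-RP-Seq) from 3 WT and 3 Tau tg mice. Both groups were 3-month-old males on a C57BL/6J background. The methods gave 3 mice per group, while the study's figure legends spoke of quadruplicate samples for this comparison. Tau tg mice carried human tau45-230, a fragment of the protein that aggregates in Alzheimer's disease, under the Thy 1.2 promoter, which is active mainly in neurons; the WT controls carried no transgene. The protocol gave cortex and hippocampus combined as the tissue of mouse brains, while the sample labels and the study's account of these mice named hippocampus. The comparison asked whether R-sRNAs differed between the WT and the Tau tg brain.

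In neurons, miR-132 and miR-212 are transcribed together from a promoter that responds to the transcription factor CREB, so that synaptic activity and neurotrophins raise their level. miR-132 promotes the growth of dendrites and spines, and it is known for its lower level in brains with Alzheimer's disease. A miRNA finds its targets mainly with its seed, the stretch from base 2 to base 7 or 8 at its 5′ end, so a read that starts 1 nt later carries a different seed.

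The 4 mature arms are shown first because the results below depend on where their reads start and end. The sequences are those of RefSeq on GRCm38.p6, with the seed (bases 2 to 8) in capitals.
miR-132-3p: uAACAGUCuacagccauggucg
miR-212-3p: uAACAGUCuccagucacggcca
miR-132-5p: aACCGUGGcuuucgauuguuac
miR-212-5p: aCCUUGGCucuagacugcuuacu
Both 3p arms share the whole seed, and they were identical at 17 of 22 positions. Counted from 1 at the 5′ end, with the base of miR-132-3p first, the 5 differences were A10C, C14U, U17C, U20C and G22A, so all of them lay outside the seed. The 5p arms do not share a seed with each other or with the 3p arms. Aligned with a shift of 1 nt, they were identical at 14 of 21 positions.

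Mir212 lies at chr11:75173388-75173478 and Mir132 at chr11:75173682-75173747, both on the plus strand of GRCm38, with 203 nt between the hairpins. Both hairpins lie in the same intron of the noncoding gene 1700016P03Rik (chr11:75172560-75177633, plus strand), upstream of its exon at chr11:75173978-75174161. The Mir132 hairpin is shown with both mature arms in capitals, since it tells which bases beyond the ends of an arm are encoded.
Mir132 hairpin: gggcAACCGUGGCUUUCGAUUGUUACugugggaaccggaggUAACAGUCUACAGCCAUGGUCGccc
The base that follows miR-132-3p in the hairpin is c, so a read with U or A at that place does not match it. The mature miR-132-3p spans chr11:75173723-75173744, and the mature miR-212-3p spans chr11:75173443-75173464.

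The deposited values of the 6 samples held between 998248 and 6879551 reads, and Tau tg 1 held 6.89 times as many as WT 3. The library sizes, recovered from the steps of the values, were larger, from 1090124 in WT 3 to 7027933 in Tau tg 1. Values are given in RPM, reads scaled to the library size, and 3 reads were worth between 0.427 and 2.75 RPM. miRNAs made up 82.7% to 92.4% of the RPM in each sample. The 6 neuronal marker miRNAs, among them miR-124-3p and miR-128-3p, summed to 123473 to 132300 RPM in WT and to 109474 to 128742 RPM in Tau tg, so miRNAs of neurons were abundant in every sample. Of 7 lists of cell type markers, 1 held members with an unadjusted p under 0.05. It was that of the pituitary, where miR-200b-3p and miR-429-3p were lower in Tau tg at log2 fold changes of -1.79 and -3.09 (2 of 4 markers with such a p in limma, against 3.63% of all miRNAs, and none past adjustment). The other two, miR-375-3p and miR-7a-5p, were at 0.54 and -0.10. The summed level of the 4 was 1010 to 3061 RPM in WT and 614 to 813 RPM in Tau tg, with no marker at 0, and its part in the results below was not tested.

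miR-132-3p was by far the most abundant arm, and its level was close in both groups. It measured 13096, 10323 and 14025 RPM in WT 1, WT 2 and WT 3, and 12573, 12896 and 13469 RPM in Tau tg 1, Tau tg 2 and Tau tg 3. In pooled tissue of this kind, fewer cells of a type and less RNA per cell cannot be told apart. The 3 Tau tg samples lay within the range of the WT samples, and among all miRNAs the arm ranked between place 10 and place 20 in every sample. The mean of WT was 12482 ± 1926 RPM and that of Tau tg 12980 ± 454 RPM (SD, n = 3 each). The log2 fold change of Tau tg over WT, on the scale of log2(RPM + 1), was 0.07 ± 0.30 (SE), with a 95% confidence interval from -0.57 to 0.70 and an adjusted p of 0.966 (limma). The median miRNA had a log2 fold change of 0.25, and relative to it miR-132-3p was at -0.18; its sign turned to negative under median-of-ratios scaling, quantile normalization, edgeR and DESeq2.

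miR-212-3p, which has the same seed, was much less abundant. It measured 860, 698 and 625 RPM in WT and 750, 659 and 606 RPM in Tau tg. The groups overlapped, with the lowest value in Tau tg 3 and the highest in WT 1. The means were 728 ± 120 RPM and 672 ± 73.1 RPM (SD, n = 3 each), and the log2 fold change was -0.11 ± 0.33 (SE), with an interval from -0.81 to 0.59 and an adjusted p of 0.966 (limma).

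miR-132-5p, the other strand of the miR-132 hairpin, measured 561, 600 and 493 RPM in WT and 429, 555 and 561 RPM in Tau tg. The lowest was Tau tg 1 and the highest WT 2, and the groups overlapped. The log2 fold change was -0.10 ± 0.34 (SE), with an interval from -0.83 to 0.62 and an adjusted p of 0.966 (limma).

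miR-212-5p was close to the limit of detection. It was represented by 1, 30 and 17 reads in WT and by 101, 2 and 37 reads in Tau tg, that is by 0.468, 20.3 and 15.6 RPM and by 14.4, 1.67 and 15.1 RPM. WT 1 and Tau tg 2 held fewer than 3 reads each, and in the other samples the arm was at 14.4 to 20.3 RPM. The log2 fold change was 0.12 ± 1.30 (SE), with an interval from -2.64 to 2.88. Among WT, the lowest sample, WT 1, had the most reads in all (2050054, against 1387001 in WT 2 and 998248 in WT 3). Among Tau tg, the lowest sample, Tau tg 2, had the fewest (1152568, against 6879551 in Tau tg 1 and 2358928 in Tau tg 3). The part of depth in this spread was not tested.

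**Figure D1:**
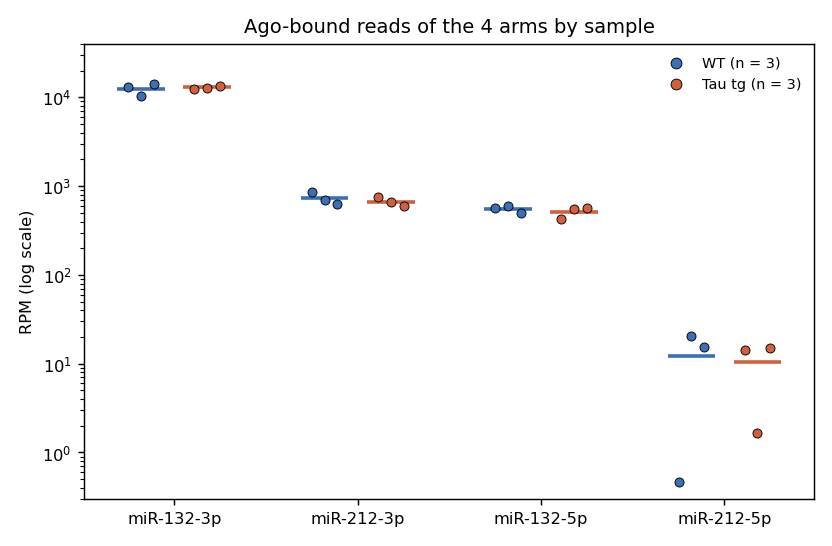
RPM (log axis) of the 4 arms in each of the 3 WT (blue) and 3 Tau tg (orange) samples, with lines at the group means. miR-132-3p lies between 10323 and 14025 RPM, the groups overlap for every arm, and miR-212-5p spreads from 0.468 to 20.3 RPM.

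The order of the arms was the same in all samples down to the last place. miR-132-3p was above all others, and miR-212-3p (606 to 860 RPM) was above miR-132-5p (429 to 600 RPM) in 6 of 6 samples without overlap of their ranges. miR-212-5p was the lowest in 6 of 6 samples. These levels are not scaled by length, which differs by 1 nt at most between the mature arms.

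None of the 4 arms was called, at an adjusted p under 0.05 or at an unadjusted p under 0.05, by limma, edgeR or DESeq2. Over all 689 miRNAs tested with limma, 25 (3.63%) had an unadjusted p under 0.05 (2.03% with a higher level in Tau tg) and 0% passed adjustment, while DESeq2 called 5 after adjustment. The groups overlapped for all 4 arms, and 9.53% of all miRNAs above 0 in every sample had groups that did not overlap. The 4 arms together took 1.67%, 1.49% and 2% of the miRNA reads in WT and 1.52%, 1.67% and 1.76% in Tau tg. The means of 1.72% ± 0.257 and 1.65% ± 0.119 (SD, n = 3 each) differed by less than either SD (exact two-sided permutation p = 0.8, adjusted p = 0.9 over 11 measures, and the same adjusted p for the other 10). With 3 samples against 3, the smallest p this test can give is 0.1, so none of these 11 measures could pass 0.05.

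Each hairpin gave mainly its 3p arm. The 3p share of miR-132 reads was 95.7% ± 1.07 in WT and 96.2% ± 0.444 in Tau tg (SD, n = 3 each, exact permutation p = 0.5). The 3p share of miR-212 reads was 98.2% ± 1.5 in WT and 98.5% ± 1.13 in Tau tg (exact permutation p = 0.8). Among 178 hairpins with both arms measured and at least 100 RPM in sum, the dominant arm had a median share of 96%, so neither member stood apart with ranks of 90 for miR-132 and 63 for miR-212. The 3p arm was the dominant one in 83 of the 178. miR-132 provided 94.6% ± 1.06 of the reads of the 4 arms in WT and 95.2% ± 0.67 in Tau tg (exact permutation p = 0.5).

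The table also held sequences named only for a hairpin and not for an arm. For mir-132 these were 72 sequences that summed to between 192 and 260 RPM, 1.43% to 1.87% of the level of its arms. For mir-212 they were 4 sequences with 0.818 to 17.6 RPM. They were left out of the arm levels.

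A single sequence, the mature form itself, made up most of miR-132-3p. The 5 most abundant sequences of the arm are shown because they differ in where they end and, for the last, where they start; the seed (bases 2 to 8) is in capitals.
Mature miR-132-3p: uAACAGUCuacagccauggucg
With an added U: uAACAGUCuacagccauggucgu
1 nt shorter at the 3′ end: uAACAGUCuacagccaugguc
With an added A: uAACAGUCuacagccauggucga
1 nt shorter at the 5′ end: aACAGUCUacagccauggucg
The mature form measured 9555, 7227 and 10184 RPM in WT and 9091, 8331 and 9858 RPM in Tau tg, a mean of 71% of the arm. The groups overlapped, with WT holding both the lowest and the highest value. The form with an added U averaged 993 ± 50.9 RPM in WT and, in Tau tg, 1033 ± 286 RPM (SD, n = 3 each), where Tau tg 1 at 773 RPM and Tau tg 2 at 1340 RPM were the extremes of all 6 samples. The form with an added A measured 373, 248 and 478 RPM in WT and 454, 765 and 517 RPM in Tau tg, and its log2 fold change was 0.67 ± 0.52 (SE), with an adjusted p of 0.584 (limma). The shorter forms averaged 688 RPM (3′ end) and 414 RPM (5′ end), and their groups overlapped too.

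The share of exact mature reads in miR-132-3p was 71.9% ± 1.61 in WT and 70% ± 4.72 in Tau tg (SD, n = 3 each, exact permutation p = 0.7). Against 241 miRNAs of at least 100 RPM that had a RefSeq mature sequence under the same name, whose median share of exact mature reads was 36.9%, miR-132-3p ranked 22. Reads of 22 nt made up 68.4% to 77% of the arm, and the mean length was 21.98 nt in WT and 22 nt in Tau tg (exact permutation p = 0.5).

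miR-212-3p was spread over more ends. Its 5 most abundant sequences, and 1 further sequence that passed an unadjusted p under 0.05, are shown with the seed (bases 2 to 8) in capitals.
Mature miR-212-3p: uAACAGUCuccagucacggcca
1 nt shorter: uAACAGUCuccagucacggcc
With an added U: uAACAGUCuccagucacggccau
2 nt shorter: uAACAGUCuccagucacggc
1 nt longer: uAACAGUCuccagucacggccac
1 nt longer with an added U: uAACAGUCuccagucacggccacu
The mature form was 29.7% of the arm and ranked 147 of 241 miRNAs for this share. It was 29.5%, 15.4% and 46.5% of the arm in WT and 27.7%, 26.8% and 34.4% in Tau tg. WT 2 and WT 3 were the lowest and the highest of the 6, so the WT samples enclosed the Tau tg samples (exact permutation p = 0.9). In WT 2 the form that is 1 nt shorter reached 245 RPM, against 108 RPM of the mature form.

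The longest of these, the 24-nt form that is 1 nt longer and has an added U, was the only member sequence with an unadjusted p under 0.05 in limma. It measured 0.468, 6.10 and 8.26 RPM in WT and 37.3, 24.3 and 27.0 RPM in Tau tg. All Tau tg samples were above all WT samples, and the WT values were 1 to 9 reads. The log2 fold change was 2.71 ± 0.96 (SE), with an unadjusted p of 0.00471 and an adjusted p of 0.584 (limma). Without WT 1 the log2 fold change was 1.89 with an unadjusted p of 0.0503. edgeR and DESeq2 gave log2 fold changes of 2.60 and 2.35 with an unadjusted p of 0.104 and 0.182.

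Of the 196 member sequences, 54 had a mean under 1 RPM and were not tested. With limma, 0 of the tested ones passed adjustment, and over all 36070 sequences tested 0.0277% did. 1 had an unadjusted p under 0.05, with a higher level in Tau tg, against 2.23% of all sequences (1.44% with a higher level in Tau tg). edgeR gave 2 member sequences with an unadjusted p under 0.05 (1.41% of those tested, against 7.11% of all sequences) and DESeq2 gave 5 (3.52% against 9.27%). Leaving out 1 sample gave 2 to 5 with limma. Without WT 1, WT 2 and WT 3 these were 1.43%, 1.45% and 3.5% of the members, beside 2.86%, 2.28% and 2.62% of all sequences. Without Tau tg 1, Tau tg 2 and Tau tg 3 they were 1.49%, 1.49% and 2.96%, beside 1.9%, 1.55% and 1.74%. The median log2 fold change of the tested members was 0.17, beside -0.16 over all sequences tested. The latter turned to 0.45, 0.19 and 0.32 without WT 1, WT 2 and WT 3 (0.27, 0.28 and 0.30 for the members) and was -0.34, -0.40 and -0.76 without Tau tg 1, Tau tg 2 and Tau tg 3 (0.00, 0.12 and 0.09 for the members). With a mean of at least 10 RPM the medians were 0.00 for the members and 0.11 over all sequences, and without a filter 0.20 and 0.28. Under median-of-ratios scaling, quantile normalization, edgeR and DESeq2 the members were at 0.03, 0.23, 0.17 and 0.01, beside -0.27, -0.03, -0.30 and -0.51. Whether the members lay above all sequences thus depended on the filter and on the sample left out. Of the 80 member sequences above 0 in all 6 samples, 4 did not overlap between the groups, while 9.31% of all such sequences did not.

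**Figure D2:**
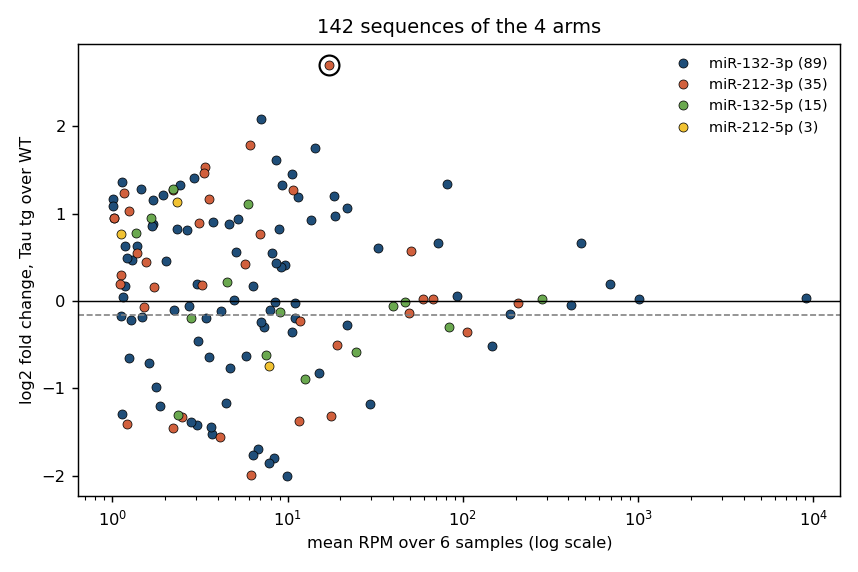
Log2 fold change of Tau tg over WT against the mean RPM (log axis) for the tested sequences of the 4 arms, coloured by arm. The dashed line is the median of all sequences tested (-0.16), the ring marks the 24-nt miR-212-3p form at 2.71, and the most abundant sequences lie close to 0.

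Reads of the 3p arms often ended in bases that the hairpin does not encode, called 3′ tails here when up to 3 nt long. A tail was counted from the first base off the hairpin, so the class also holds mismatches near the 3′ end. An example is the tail CCG of miR-132-3p, at a mean of 7.99 RPM. Added U or A can come from nucleotidyltransferases that attach these bases to the ends of miRNAs. In miR-132-3p, 15.5%, 16.8% and 16.1% of reads were tailed in WT and 15.2%, 22.7% and 15.9% in Tau tg. The highest was Tau tg 2 and the other 5 samples were close together, and the means of 16.1% ± 0.68 and 18% ± 4.14 (SD, n = 3 each) differed by less than the spread in Tau tg (exact permutation p = 0.9). A single U was the most frequent tail with a mean of 10.1% of the reads, followed by a single A with 5.43%. Tau tg 2 had the highest share of both, at 13.8% and 7.67%.

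In miR-212-3p the tailed share ranged from 20.4% to 36.9%, and the extremes were WT 3 and WT 1. A single U ranged from 5.14% to 22.3% within WT, but from 15.3% to 17% in Tau tg. In each of the 6 samples, the tailed share of miR-212-3p was above that of miR-132-3p. miR-132-5p was tailed in 0.373% to 4.75% of reads, and none of the 3 sequences of miR-212-5p had a tail.

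**Figure D3:**
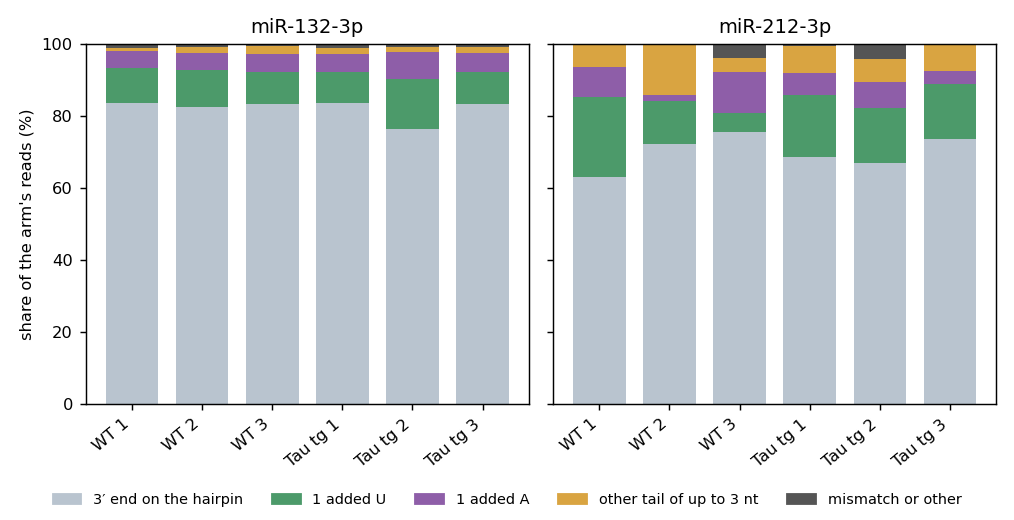
Share of reads (%) of miR-132-3p and miR-212-3p in each sample by 3′ end: on the hairpin, with 1 added U, 1 added A, another tail of up to 3 nt, or with a mismatch or other change. Tau tg 2 has the tallest U and A segments for miR-132-3p, and the WT samples of miR-212-3p differ most among themselves.

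Most reads of miR-132-5p did not start at the RefSeq start. They started 1 nt downstream, which moves the seed by 1 base, as the 2 most abundant sequences show with their own seeds (bases 2 to 8) in capitals.
Start 1 nt downstream: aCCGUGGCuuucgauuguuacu
RefSeq start, 1 nt shorter at the 3′ end: aACCGUGGcuuucgauuguua
The first of them measured 319, 234 and 283 RPM in WT and 218, 314 and 322 RPM in Tau tg, with overlap. The start 1 nt downstream took 72.3%, 68.8% and 67.8% of the reads in WT and 64.9%, 71.7% and 71% in Tau tg, so it was the main start in 6 of 6 samples. The RefSeq start took 25.3% to 32.3%. The difference between the groups was smaller than the spread within them (exact permutation p = 0.9). The exact RefSeq mature form was 1.7% of the arm. Of these 241 miRNAs with a RefSeq sequence, 20 or 8.3% had another seed than RefSeq in their most abundant read, and miR-132-5p was one of them.

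The 3p arms kept to the RefSeq start far more closely. In miR-132-3p, 93% to 94.6% of reads started there, 3.9% to 5.52% started 1 nt downstream, and the shares of all other starts were lower. In miR-212-3p, 89.7% to 99.6% of reads had the RefSeq start. The share of miR-132-3p reads with a shifted seed was 6.1% ± 0.904 in WT and 6.63% ± 0.446 in Tau tg (SD, n = 3 each, exact permutation p = 0.4).

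The reads of miR-132-3p that started 2 nt downstream were a small share, and that share was higher in Tau tg. It was 0.372%, 0.414% and 0.7% in WT and 1.3%, 1.68% and 1.43% in Tau tg. All 3 Tau tg samples were above all 3 WT samples, with means of 0.495% ± 0.179 and 1.47% ± 0.192 (SD, n = 3 each). The exact two-sided permutation p was 0.1, the smallest this design can give, and the comparison was chosen after the values had been seen. Counting error, as a Wilson 95% binomial interval, came to at most 0.215 percentage points for any sample. Of the 54 among these 241 miRNAs with such reads in all samples, 6 or 11.1% had a share that was higher in Tau tg without overlap.

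**Figure D4:**
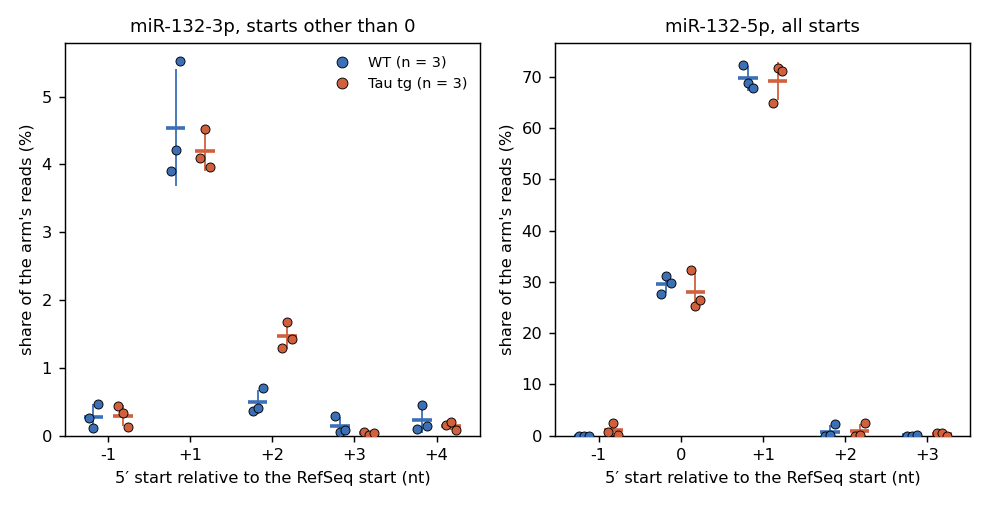
Share of reads (%) by 5′ start relative to the RefSeq start (nt) for miR-132-3p, with the RefSeq start itself left out, and for miR-132-5p. Points are samples, lines the group means and bars the SD (n = 3 each). At +2 of miR-132-3p the Tau tg points (1.3% to 1.68%) lie above the WT points (0.372% to 0.7%), and at +1 of miR-132-5p the groups overlap.

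The reads that started 2 nt downstream also differed in their 3′ ends from the rest of the arm. They came to 104, 63 and 107 reads in WT and 1151, 259 and 470 reads in Tau tg. Reads with tails over 3 nt were left out, and with them the share of the arm was 0.713% in WT 3 and 1.88% in Tau tg 2. The counted reads were tailed in 54.9% to 96.5% of cases, against 14.2% to 21.2% of the reads with the RefSeq start. Their 2 main sequences are shown with their own seed (bases 2 to 8) in capitals.
Start 2 nt downstream with an added U: aCAGUCUAcagccauggucgu
Start 2 nt downstream without a tail: aCAGUCUAcagccauggucg
The form with the added U measured 40.8, 22.4 and 75.2 RPM in WT and 111, 181 and 57.3 RPM in Tau tg. The value of Tau tg 3 lay below that of WT 3, so this single form overlapped between the groups. The form without a tail was at 77.7 RPM in Tau tg 3 and at 2.81 to 9.17 RPM in the other samples. These 2 sequences were named after their values had been seen.

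The study read R-sRNAs by their 6mer seed, bases 2 to 7, and gave each seed a viability, the percentage of cells that survive a short RNA with that seed, as a mean over murine cell lines. A low viability marks a toxic seed. The seed AACAGU of both 3p arms had a viability of 63.1%, and the members provided 98.7% to 99.3% of all reads with this seed. Its level was 13378, 10572 and 13753 RPM in WT and 12636, 12658 and 13394 RPM in Tau tg. WT held the lowest and the highest value, and its log2 fold change was 0.05 ± 0.35 (SE), with an interval from -0.65 to 0.74.

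The starts of miR-132-3p 1 nt and 2 nt downstream carried seeds of lower viability than the RefSeq start. The seed of the start 1 nt downstream, ACAGUC, had a viability of 29.1%, with 591, 499 and 1005 RPM in WT and 546, 607 and 620 RPM in Tau tg. WT 3 was the highest and the groups overlapped, with a log2 fold change of -0.18 ± 0.39 (SE). The seed of the start 2 nt downstream, CAGUCU, had a viability of 40.2%, with 48.7, 42.7 and 131 RPM in WT and 164, 267 and 215 RPM in Tau tg. All Tau tg samples were above all WT samples, with means of 74.2 ± 49.4 RPM and 215 ± 51.5 RPM (SD, n = 3 each). The log2 fold change was 1.68 ± 0.56 (SE), with an interval from 0.59 to 2.78, an unadjusted p of 0.00278 and an adjusted p of 0.705 (limma).

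Of the 6 seeds of the arms read here, CAGUCU alone had an unadjusted p under 0.05, and none passed adjustment. These 6 mix seeds of RefSeq starts with seeds of shifted starts, and other seeds of the arms, such as UAACAG, were left out. The start that carries CAGUCU was chosen after its values had been seen, so its p-values are those of a picked seed. Over all 3987 seeds tested, 172 or 4.31% had an unadjusted p under 0.05 and 5 passed adjustment, and 11% of the seeds above 0 in all samples did not overlap between the groups. edgeR and DESeq2 gave an unadjusted p of 0.00358 and 0.0021 for CAGUCU, and limma without a mean-variance trend gave 0.0729. Members provided 76.2% to 100% of the reads with this seed, with the lowest share in WT 3. The read count for this seed in each sample contains the reads of the start 2 nt downstream described above, so both values describe the same reads.

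**Figure D5:**
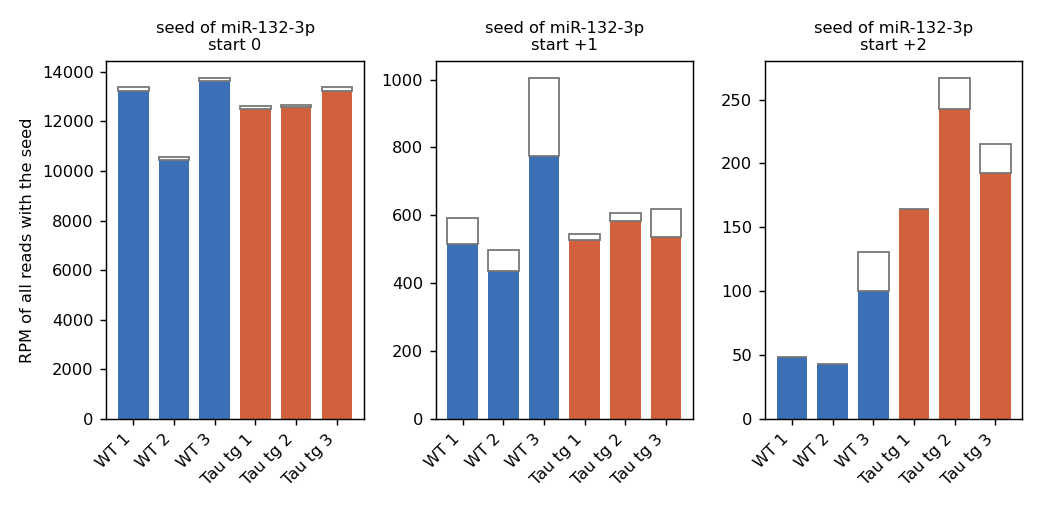
RPM of all reads with the seeds that miR-132-3p carries at its RefSeq start, 1 nt downstream and 2 nt downstream, by sample (each axis starts at 0 and has its own scale). Filled bars are reads of the 4 arms and open segments are other reads. Only for the start 2 nt downstream are all Tau tg bars (164 to 267 RPM) above all WT bars (42.7 to 131 RPM).

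On the 5p side, both starts of miR-132-5p had their own seed. ACCGUG, the seed of the RefSeq start, had a viability of 59.8% and a log2 fold change of -0.39 ± 0.50 (SE). CCGUGG, the seed of the main start 1 nt downstream, had a viability of 45.2% and a log2 fold change of -0.11 ± 0.42 (SE). The seed of miR-212-5p, CCUUGG, was carried mostly by other reads, as the arm provided 0.694% to 22.6% of them. Weighted by RPM, the mean seed viability of the 4 arms was 61% ± 0.212 in WT and 60.9% ± 0.156 in Tau tg (SD, n = 3 each, exact permutation p = 0.8).

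Other miRNAs that neurons regulate with activity, or that have been tied to tau, were read as 2 lists beside the cluster. Of 14 activity-linked miRNAs, among them miR-134-5p, miR-138-5p and miR-124-3p, 0 had an unadjusted p under 0.05 with limma, beside 3.63% of all miRNAs. Their median log2 fold change was 0.03 beside 0.25 over all miRNAs, and 7 of 14 were above 0. The groups did not overlap for miR-188-5p and for miR-184-3p, which was at 0 in WT 1 and WT 2. In WT 3 miR-184-3p was at 2.75 RPM, the worth of 3 reads, against 3.35 RPM in Tau tg 2, so it was separated near the read floor. Both miRNAs were higher in Tau tg, and both were named after their values had been seen. The groups of the others on this list overlapped. Over all miRNAs above 0 in every sample, a set without miR-184-3p, 9.53% had groups that did not overlap. Of 9 tau-linked miRNAs, 4 of them also on the first list, 0 had an unadjusted p under 0.05, beside the same 3.63%. Their median log2 fold change was 0.13. The 4 arms of the cluster were at -0.11 to 0.12.

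The miRNAs whose levels over the 6 samples were most like those of miR-132-3p were found from the mean absolute difference of log2 values centred on each miRNA's mean. Among 275 other miRNAs of at least 100 RPM, the closest was miR-29c-5p (0.150), followed by miR-26b-5p (0.159), miR-135b-5p (0.161), miR-26a-5p (0.164) and miR-382-3p (0.167). miR-132-5p, from the same hairpin, ranked 14 (0.183), and miR-212-3p ranked 36 (0.228). The median over the 275 was 0.372. This likeness rests on 6 samples with little spread in miR-132-3p, and is a description.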

How the data were processed

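Ago-bound short RNAs were measured in 3 WT and 3 Tau tg samples, grouped by the sample titles. The authors ran their SPOROS pipeline, in which reads were trimmed (Trim Galore, per the submitters' processing notes), compiled into unique sequences, cleared of rare reads and searched with BLAST against small RNA lists, and artificial sequences were removed. The deposited values are RPM, scaled by the authors to the library size. Since rare reads were dropped, low values are incomplete. The deposited viability score of each 6mer seed was used as given. A deposited total over more columns was not used.

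Of 109434 rows, 44347 were at 0 in all samples. Whole reads were recovered from the RPM steps for 100% of values (tolerance 0.001 RPM), and edgeR and DESeq2 were run on them as alternatives: over all single sequences they called 49 and 459 at an adjusted p under 0.05, and limma called 10. The PCR reads carry no molecular identifiers, so intervals and read floors cover counting error only.

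RPM were summed by arm or seed, and arms, seeds and single sequences averaging 1 RPM or more were tested over the whole table with limma 3.58.1 (mean-variance trend, log2(RPM + 1), Benjamini-Hochberg). This scale understates changes of low rows. Shares were compared with exact two-sided permutation tests over 20 assignments of the samples. Reads were placed on the RefSeq hairpins by exact match, with up to 3 further 3′ bases called a tail, 1 mismatch, or other. All 4 arms matched RefSeq by name. Annotation was GENCODE M21 on GRCm38.

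Named were the 4 arms, up to 5 most abundant sequences per arm, up to 3 per direction with an unadjusted p under 0.05 and no overlap, members of the activity-linked and tau-linked lists with such a p (there were none), and the 5 miRNAs most like miR-132-3p. The members, lists and tests were chosen with earlier results of these data known. The comparisons of the starts 2 nt and 1 nt downstream were added after seeing the data. Same-numbered WT and Tau tg samples did not deviate together, and the main tests used no replicate block. Scripts were tested on simulated data. R 4.3.3, edgeR 4.0.16, DESeq2 1.42.0, Python 3.11.15, NumPy 2.4.6, pandas 2.3.3, statsmodels 0.14.6 and Matplotlib 3.10.9 were used.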

Additional observations from a re-analysis of the deposited data

How the results depend on the processing

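No arm had an unadjusted p under 0.05 under any of the 16 alternatives run. The count of member sequences with such a p rose from 1 to 2 with a pseudocount of 0.1, with the replicate block and with edgeR (1.41% of the members, against 2.85%, 2.24% and 7.11% of all sequences), to 5 with DESeq2 (3.52% against 9.27%), and to between 2 and 5 when 1 sample was left out. In these last runs the member share was above that of all sequences without WT 3 (3.5% against 2.62%) and without Tau tg 3 (2.96% against 1.74%), and below it otherwise. Among the seeds read above, the count was 1 except for 0 without the mean-variance trend. The cause of these changes was not tested. Replicate numbers did not pair the samples (same-number correlations of -0.00, -0.07 and 0.04 of the deviations from the group means). The replicate block gave 22 arms with an unadjusted p under 0.05 in place of 25 and 22 sequences in place of 10 after adjustment. It changed no call on an arm of the cluster or on a seed read above.

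Log2 fold changes near 0 changed sign. The median over all arms was 0.25 with limma and 0.09, 0.06, 0.05 and 0.01 under median-of-ratios scaling, quantile normalization, edgeR and DESeq2, and the median over all sequences -0.16 against -0.27, -0.03, -0.30 and -0.51. Median-of-ratios scaling, quantile normalization, edgeR and DESeq2 put miR-132-3p at -0.09, -0.14, -0.07 and -0.11 and miR-212-5p at -0.05, -0.04, -0.41 and -0.45, and a pseudocount of 5 put the latter at -0.04. Median-of-ratios scaling put the most abundant sequence of miR-132-3p at -0.14 and the next at -0.15, the first of miR-132-5p at -0.15, and the third and the fourth of miR-212-3p at -0.14. DESeq2 put these at -0.15, -0.11, -0.13, -0.50 and -0.13. Quantile normalization put the first 2 of miR-132-3p at -0.02 and -0.11, and the third and the fourth of miR-132-5p at 0.22 and 0.15. The third of miR-132-5p was at 0.00 with a pseudocount of 0.1, and the third of miR-212-3p at -0.01 with a pseudocount of 5 and at -0.33 with edgeR. Under median-of-ratios scaling, edgeR and DESeq2 the seed ACAGUC was at 0.09, 0.13 and 0.04, CCGUGG at 0.15, 0.22 and 0.14, and CCUUGG at 0.09, 0.24 and 0.13, with 0.03 under quantile normalization. The Tau tg minus WT share of miR-132-5p reads starting 1 nt downstream was 0.298 percentage points with sequences of at least 1 RPM only.

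Leaving out 1 sample, the log2 fold change ranged from -0.06 to 0.16 for miR-132-3p, -0.18 to 0.02 for miR-132-5p, -0.21 to 0.02 for miR-212-3p and -1.11 to 0.97 for miR-212-5p. For sequences of miR-132-3p, by place in abundance, it ranged from -0.12 to 0.13 (place 1), -0.18 to 0.21 (place 2) and -0.25 to 0.26 (place 5), for miR-132-5p from -0.10 to 0.20 (place 1), -0.82 to 0.65 (place 3) and -0.18 to 0.17 (place 4), for miR-212-3p from -0.46 to 0.25, -0.80 to 0.27, -0.77 to 0.69, -0.18 to 0.27 and -0.08 to 1.09 (places 1 to 5), and for the first of miR-212-5p from -2.15 to 0.03. Seeds ranged from -0.07 to 0.12 (AACAGU), -0.39 to 0.12 (ACAGUC), -0.22 to 0.03 (CCGUGG), -0.40 to 0.08 (CCUUGG) and 1.39 to 2.19 (CAGUCU). In percentage points, Tau tg minus WT ranged from -0.0587 to 0.99 (3p share of miR-132), -0.385 to 1.11 (3p share of miR-212), -0.189 to 0.0651 (cluster share), -3.41 to 0.887 and -8.38 to 7.18 (exact mature share of miR-132-3p and miR-212-3p), -0.0587 to 0.216 (member share of AACAGU), -0.557 to 3.18 (tailed share), -0.154 to 0.0513 (seed viability), -1.67 to 1.7 (miR-132-5p start 1 nt downstream) and 0.87 to 1.08 (miR-132-3p start 2 nt downstream).

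Over all sequences, edgeR gave 2565 and DESeq2 3344 with an unadjusted p under 0.05 in place of 803, and their calls were mostly lower in Tau tg (14% and 7.78% higher, against 64.6%). Among arms, the share of such calls that were higher in Tau tg was 56% with limma, 40% with median-of-ratios scaling, 29.2% with quantile normalization, 21.4% with edgeR and 73.5% without trend. The depth limited sequences under 2.75 RPM, the worth of 3 reads in WT 3.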
